A study of Mus musculus with 2 samples.

Results

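The genes of cholesterol and fatty acid synthesis that the sterol regulatory element-binding proteins (SREBPs) control were examined in mouse dorsolateral prostate. A list of 30 genes was used, 19 in a sterol arm and 11 in a fatty acid arm, and each was found by matching the RefSeq accessions of the array's probes to gene symbols. All 30 were on the array, among 18946 genes with a matched probe, and were covered by 51 probes. Of these genes, 14 had a single probe, and for the other 16 the probe with the highest mean intensity over both arrays was taken. A gene was called detected when the scanner's well-above-background flag was set on both arrays for 1 or both pools, which held for 28 of the 30 members and for 10407 genes in all. The exceptions were Srebf2 and Elovl6.

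RNA came from FVB/N mice aged 6 months. One pool was made from 6 wild-type animals and the other from 6 animals with the ARR2PB-miR32 transgene, in which the microRNA miR-32 is placed behind ARR2PB, a modified probasin promoter that is androgen-responsive and active in prostate epithelium. Both pools were hybridised to 2 two-colour Agilent arrays with exchanged dyes. The transgenic pool was read in Cy3 on array 1 and in Cy5 on array 2, and the comparison asks what miR-32 changes in prostate RNA. Both arrays measured the same pair of pools, so they count as 1 replicate and allow no test of genotype. Each ± is the SD over the 2 arrays and covers technical spread only, because pooling hides the differences between animals. Stroma, fat and blood cells of the gland are in the pools too, and a lower cell number of a type cannot be told apart from less RNA per cell. The tissue label was checked against 14 prostate luminal markers, and all 14 were detected, among them the epithelial keratins Krt8 and Krt18 and the probasin gene Pbsn.

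The 5p mature strand of miR-32 is shown because this microRNA is the one placed in the transgene. Its RefSeq sequence in assembly GRCm38.p6 (chr4:56895272-56895293, minus strand) has the seed, bases 2 to 8, in capitals. Mature miR-32 itself, 5p or 3p, was not analysed here.
mmu-miR-32-5p: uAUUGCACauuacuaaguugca

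Animal cells make cholesterol from acetyl-CoA through the mevalonate pathway and fatty acids through citrate cleavage, carboxylation and the fatty acid synthase. The SREBP precursors sit in the endoplasmic reticulum with SCAP and are held there by INSIG proteins when sterols are plentiful. When sterols fall, the complex moves to the Golgi, a pair of proteases release the N-terminal domain of the precursor, and this domain enters the nucleus and binds sterol regulatory elements in the promoters of both arms. SREBP-2, from Srebf2, acts mainly on sterol genes, and SREBP-1c, from Srebf1, mainly on fatty acid genes. In prostate epithelium, androgens are known to raise lipid synthesis through this system.

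No member of either arm passed 1.5-fold the same way on both arrays. By this rule 0 of 18 detected sterol genes and 0 of 10 detected fatty acid genes were called, against 2.22% of all detected genes. The called genes split into 95 with more signal in the transgenic pool (0.913%) and 136 with less (1.31%). With so low a background, an absence of calls among 28 genes does not set the members apart. A pattern that followed the dye in place of the pool passed 1.5-fold in 0 members and in 3.06% of detected genes. The split of called genes differed with the processing and with the genes kept. It was 246 higher to 621 lower with the own ratios of Feature Extraction, the scanner software, and 2 to 554 with median centring. In the authors' deposited table, which held 6046 of the detected genes, it was 173 to 117. Over the 6052 genes detected in both pools it was 92 to 76 in the processing used here. The weakest channel was Cy5 of array 2, which read the transgenic pool, with 21.1% of spots well above background against 42.1% for Cy5 on array 1 and 58.3% and 57% for Cy3. In the transgenic pool 16 of the 28 detected members were well above background on both arrays, 9 in the sterol and 7 in the fatty acid arm. The other 12 were measured in that pool on array 1 only, and a small SD does not make their array 2 ratios precise. In the sterol arm they were Lss, Cyp51, Dhcr7, Fdft1, Idi1, Mvk, Nsdhl, Hsd17b7 and Insig1. In the fatty acid arm they were Acaca, Fads1 and Fads2.

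The sterol arm lay close to all genes. Its median log2 ratio of transgenic over wild type was −0.11, with −0.13 on array 1 and −0.16 on array 2, where the median over all detected genes was −0.06. Individual means ran from −0.58 to 0.45, and 12 of 18 were below 0, against 59.3% of all detected genes. Only 8 of 18 had the same sign on both arrays (45.4% of all genes did), 7 below and 1 above 0. The fatty acid arm lay somewhat lower, with a median of −0.22 (−0.19 and −0.24 on arrays 1 and 2). In it 9 of 10 means were below 0, and 8 of 10 genes were below 0 on both arrays, which was true of 27.9% of all detected genes. Of these 8, Fasn (−0.03), Scd2 (−0.01) and Fads1 (−0.05) lay on array 2 above that array's median over all detected genes, −0.08. Members measured in the transgenic pool on array 1 only passed the detection filter through the wild-type pool, which favours ratios below 0. Among genes detected in both pools, 6 of 7 fatty acid and 2 of 9 sterol genes were below 0 on both arrays. Over all such genes it was 22%. These are descriptions of 1 pair of pools, and the difference between the arms was not tested.

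**Figure D1:**
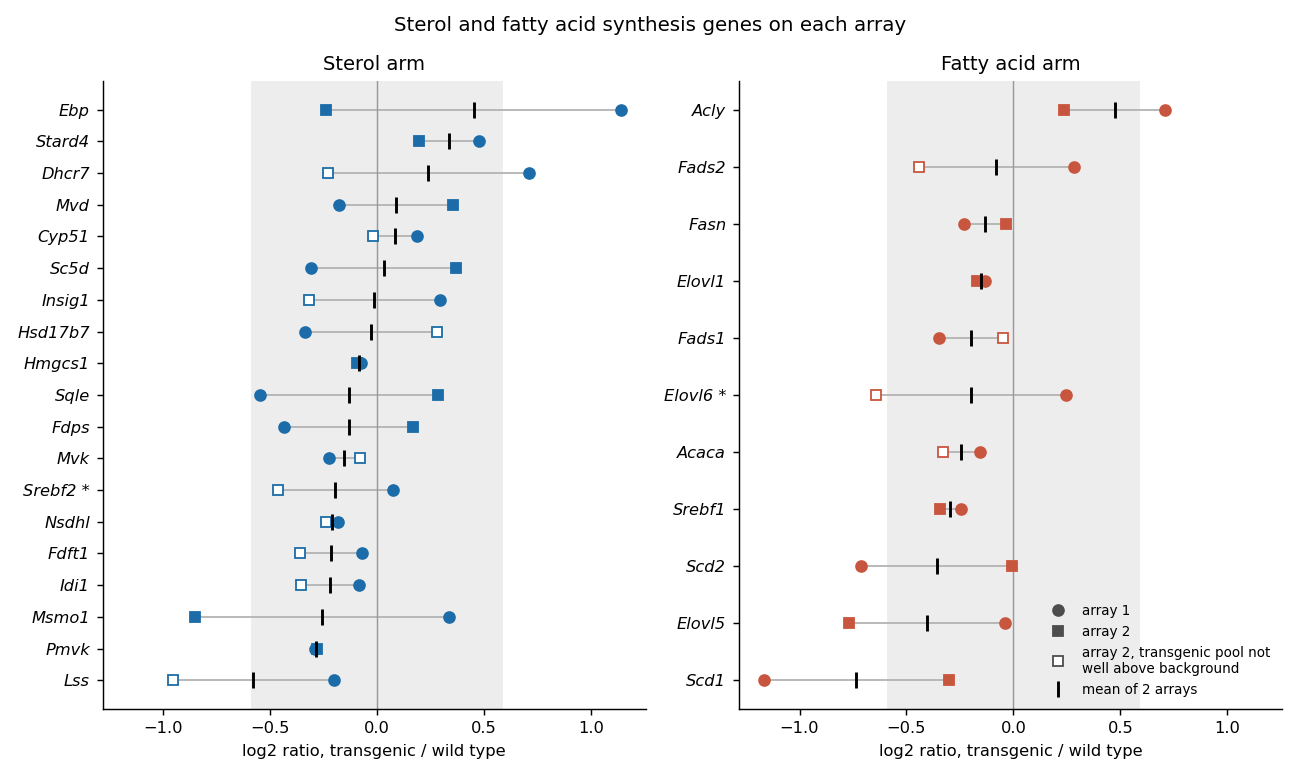
Log2 ratio of transgenic over wild type for each member on array 1 (circles) and array 2 (squares), with the mean as a black tick, genes ordered by their mean. Open squares mark genes whose transgenic signal did not clear background on array 2, asterisks the undetected genes Srebf2 and Elovl6, and the grey band is within 1.5-fold; no gene has both symbols outside the band on one side, and the widest gap between symbols is that of Ebp, at 1.14 and −0.24.

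The first steps of the sterol arm lead from acetyl-CoA units to isoprenoids. Hmgcs1, which makes HMG-CoA, read 8.21 and 8.15 in the wild-type pool and 8.14 and 8.05 in the transgenic pool on arrays 1 and 2, in log2 normalised intensity. The 4 readings lay close together, and the log2 ratio in this processing was −0.09 ± 0.01. With Feature Extraction's own ratios Hmgcs1 was at −0.44 and −0.06, and in the authors' deposited table at −0.44 and −0.09. With median centring its mean was −0.70. Mvk and Pmvk are the successive kinases of mevalonate. Pmvk read 8.83 and 8.95 in wild type against 8.54 and 8.67 in transgenic RNA, so that both transgenic readings were below both wild-type ones, by 1.22-fold (−0.29 ± 0.01). The second detected probe of Pmvk did not repeat this: it was at 0.49 on array 1 and −0.46 on array 2. With Feature Extraction's own ratios the brightest probe was at −0.13 and 0.17. Mvk, a dim probe, was at −0.15 ± 0.10. Mvd, which decarboxylates mevalonate diphosphate to isopentenyl diphosphate, was at 0.09 ± 0.38 with opposite signs on the arrays. Idi1, the isomerase of isopentenyl diphosphate, was at −0.22 ± 0.19 and Fdps, the farnesyl diphosphate synthase, at −0.13 ± 0.43. For Mvd and Fdps the SD over the arrays exceeded the mean.

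Squalene is then made and closed to lanosterol. Fdft1, the squalene synthase, was at −0.21 ± 0.20. Sqle, the squalene epoxidase, read 8.06 and 7.67 in wild type and 7.52 and 7.95 in transgenic RNA. The readings of the pools crossed between arrays, with log2 ratios of −0.55 and 0.28. Lss, which cyclises oxidosqualene, had the lowest mean of the arm at −0.58 ± 0.53. Its value rests on array 2 (−0.95, against −0.20 on array 1), where the transgenic net signal was −14.5 units and thus below local background; the transgenic pool was measured on array 1 only.

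Among the enzymes that turn lanosterol into cholesterol, Ebp, Msmo1 and Dhcr7 differed most between the arrays. Cyp51, the lanosterol demethylase, was at 0.08 ± 0.15. Msmo1, the methyl sterol oxidase, read 8.97 and 9.19 in wild type and 9.31 and 8.33 in transgenic RNA, which gave 0.34 on array 1 and −0.85 on array 2. Nsdhl and Hsd17b7, which act with it in C-4 demethylation, were at −0.21 ± 0.04 and −0.03 ± 0.44, and the second detected probe of Nsdhl was at −0.18. The transgenic signal of both genes cleared background on array 1 only. With Feature Extraction's own ratios the mean of Nsdhl was −0.62. Ebp, the sterol isomerase, had the highest mean of the arm, 0.45 ± 0.98. It read 9.87 and 11.07 in wild type and 11.02 and 10.83 in transgenic RNA, so that wild type on array 1 was the low reading and the pools overlapped. With Feature Extraction's own ratios (0.29 and 0.95) and in the authors' deposited table (0.29 and 0.93) Ebp was above 0 on both arrays, the larger value being that of array 2, and with median centring its mean was −0.48. Sc5d, the lathosterol desaturase, was at 0.03 ± 0.48. Dhcr7, the last reductase of the pathway, was at 0.24 ± 0.66, and its second detected probe was at −0.05. On array 1 alone Ebp (1.14) and Dhcr7 (0.71) were higher by more than 1.5-fold, and on array 2 alone Lss and Msmo1 were lower. One array alone gave 2 of 18 genes past 1.5-fold in each case, where it was 13.5% of all genes on array 1 and 20.3% on array 2.

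**Figure D2:**
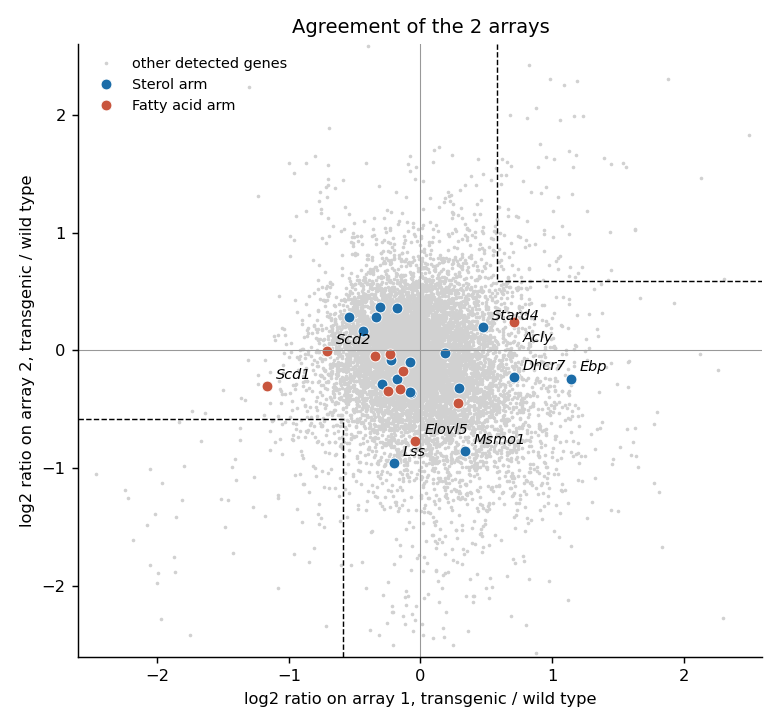
Log2 ratio on array 1 (x axis) against array 2 (y axis), both as transgenic over wild type, for all detected genes (grey) and the 28 detected members; 39 genes lie outside the axes. The dashed corners enclose genes past 1.5-fold in the same direction on both arrays, and no member lies in either corner; Scd1 (−1.17 and −0.30) and Acly (0.71 and 0.24) pass on array 1 only.

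Of the sterol regulators, Srebf2 was not detected in either pool on both arrays (net wild-type signals of 42 and 72 intensity units), and its ratio of −0.19 ± 0.38 carries little information. Insig1, a sterol sensor that retains SREBP precursors and is itself a sensitive SREBP target, was at −0.01 ± 0.43, with 0.29 on array 1 and −0.32 on array 2. Stard4 encodes a cytosolic sterol carrier that SREBP-2 induces. It read 7.71 and 7.53 in wild type and 8.19 and 7.72 in transgenic RNA, and in this processing no other sterol gene was above 0 on both arrays (0.48 and 0.19, mean 0.34 ± 0.20). The lower transgenic reading lay barely above the higher wild-type one. Stard4 passed the 1.5-fold rule with Feature Extraction's own ratios (0.67 and 0.78) and in the authors' deposited table (0.67 and 0.75), and was at −0.15 with median centring.

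Promoters of the members are shown because SREBPs act through promoter sequences. The list was chosen as SREBP-linked genes, so a high share of motifs tied to SREBP binding is no independent finding. The shares stand beside all genes with a window, detected or not. RefSeq windows (assembly GRCm38.p6, 250 bases before to 50 after a transcription start) were at hand for 23 members, 15 of the sterol and 8 of the fatty acid arm. The pentamer CCAAT, which NF-Y binds beside SREBP, was present on either strand in a window of 20 of the 23, including all 15 sterol genes, against 41.1% of all genes with a window. GGGCGG, the core of an Sp1 box, was present in 18 of 23, against 38.2%. The palindrome CACGTG, an E-box that SREBPs can also bind, was in 5 of 23 (Dhcr7, Sc5d, Hsd17b7, Insig1 and Elovl5), against 8.09%. The exact core CACCCCAC of the classical sterol regulatory element occurred in 1 of 23, against 3.30%. That 1 gene was Hmgcs1, where the core starts 136 bases before the start site on the plus strand. Absence of these letters elsewhere says nothing of SREBP binding, as most known sites differ from this core. The 3 windows below are those of Hmgcs1 (chr13:119690101-119690400, plus strand) and of Ebp (chrX:8193463-8193762, minus strand) and Acly (chr11:100527951-100528250, minus strand), which had the highest means of their arms. Capitals mark the sterol element core and CCAAT or its complement ATTGG, of which Hmgcs1 has 4, Ebp 2 and Acly 1.
Hmgcs1: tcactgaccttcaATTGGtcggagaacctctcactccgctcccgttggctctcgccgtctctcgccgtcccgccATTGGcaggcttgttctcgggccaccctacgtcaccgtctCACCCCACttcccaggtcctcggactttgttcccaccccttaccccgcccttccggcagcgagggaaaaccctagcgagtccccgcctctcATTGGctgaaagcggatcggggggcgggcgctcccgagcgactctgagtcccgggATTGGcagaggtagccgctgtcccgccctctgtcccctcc
Ebp: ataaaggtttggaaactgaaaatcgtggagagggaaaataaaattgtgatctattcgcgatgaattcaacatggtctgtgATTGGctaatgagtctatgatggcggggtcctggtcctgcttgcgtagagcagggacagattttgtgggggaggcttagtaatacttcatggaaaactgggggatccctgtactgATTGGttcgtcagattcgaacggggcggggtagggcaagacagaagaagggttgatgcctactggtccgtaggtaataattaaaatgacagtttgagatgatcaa
Acly: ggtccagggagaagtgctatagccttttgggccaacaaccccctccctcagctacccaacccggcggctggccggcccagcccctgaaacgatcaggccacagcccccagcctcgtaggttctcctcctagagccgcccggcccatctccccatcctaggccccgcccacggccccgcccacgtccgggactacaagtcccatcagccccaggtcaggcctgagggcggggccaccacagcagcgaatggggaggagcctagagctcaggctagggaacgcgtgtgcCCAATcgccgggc
In the processing used here, Hmgcs1 had a ratio of −0.09 ± 0.01, Ebp of 0.45 ± 0.98 with opposite signs on the arrays, and Acly of 0.47 ± 0.33 with both arrays above 0. Other processing moved these values, as given for each gene. No relation between motif and ratio was tested.

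In the fatty acid arm, Srebf1 was bright and, in this processing, steady. It read 11.31 and 11.44 in wild type and 11.06 and 11.09 in transgenic RNA, so both transgenic readings were lower and the ratio was −0.30 ± 0.07, or 1.23-fold lower. The arrays lay further apart with Feature Extraction's own ratios (−0.16 and −0.45), in the authors' deposited table (−0.16 and −0.47) and with median centring (−0.31 and −2.19). Whether its probe separates SREBP-1a from SREBP-1c transcripts was not examined. Acly, which releases acetyl-CoA from citrate, was, in this processing, the only member of the arm above 0 on both arrays. Its readings were 8.58 and 8.27 in wild type and 9.29 and 8.51 in transgenic RNA, a ratio of 0.47 ± 0.33 in which the pools overlapped between arrays. With Feature Extraction's own ratios (0.82 and 0.72) and in the authors' deposited table (0.82 and 0.69) Acly passed the rule, and with median centring its mean was −0.20. Acaca, the acetyl-CoA carboxylase, was dim, with −0.24 ± 0.12 on its brightest probe and 0.04 and 0.07 on 2 other detected probes. Fasn, the fatty acid synthase, read 11.12 and 11.02 in wild type against 10.89 and 10.99 in transgenic RNA, a ratio of −0.13 ± 0.14. Both transgenic readings were below both wild-type ones by little. A second, dim probe of Fasn was at −0.21 on array 1 and −0.88 on array 2.

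Scd1 and Scd2 encode stearoyl-CoA desaturases, which introduce the first double bond into saturated fatty acids. Scd1 had the lowest mean of all 30 members. It read 9.93 and 9.50 in wild type and 8.76 and 9.20 in transgenic RNA, so both transgenic readings were below both wild-type ones. The ratio was −1.17 on array 1 and −0.30 on array 2, on average 1.66-fold lower (−0.73 ± 0.61). The rule was not met because of array 2, nor was it met with Feature Extraction's own ratios (−1.29 and −0.58). It was met in the deposited table of the authors (−1.29 and −0.60) and with median centring (−1.20 and −1.89). With median centring, however, the median of all detected genes on array 2 was itself −1.09, so calls of lower genes there carry little weight. Scd2 read 12.52 and 11.99 in wild type and 11.80 and 11.98 in transgenic RNA, with a ratio of −0.71 on array 1 and −0.01 on array 2 (−0.36 ± 0.50). With Feature Extraction's own ratios (−0.61 and −0.40) and in the deposited table of the authors (−0.61 and −0.43) array 2 was further below 0, and with median centring Scd2 passed the rule (−0.79 and −1.91). Each gene had 1 probe, and whether the probes tell these similar transcripts apart was not examined, so both values are uncertain to that extent.

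The elongases add carbon pairs to fatty acids and the desaturases Fads1 and Fads2 act on polyunsaturated chains. Elovl1, for saturated very long chains, read 10.16 and 10.34 in wild type against 10.03 and 10.17 in transgenic RNA (−0.15 ± 0.03). Its pools overlapped between arrays but not within either. Elovl5, for polyunsaturated chains and known to respond to androgen in prostate, was at −0.41 ± 0.52. Its value was −0.04 on array 1 and −0.77 on array 2, and its second detected probe, a dim one, was below 0 on both (−0.46 and −0.56). Elovl6, which extends palmitate, was not detected and gave 0.24 and −0.64. Fads1 and Fads2 were dim and were at −0.20 ± 0.21 and −0.08 ± 0.51. Over both arms, 13 of 28 detected members had a mean larger than the SD over the arrays, against 35% of all detected genes.

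Adipocytes express the fatty acid arm at a high level, so adipocyte markers are given beside it. Of 16 such genes, 14 were on the array, 13 were detected, all 13 were below 0 on both arrays and 7 were called lower (1.31% of all detected genes were). The called genes were Cfd (−2.75 ± 0.96), Fabp4 (−2.13 ± 0.22), Car3 (−2.04 ± 1.43), Adipoq (−1.81 ± 0.08), Cidec (−1.63 ± 0.32), Cidea (−1.30 ± 0.04) and Retn (−0.83 ± 0.14). For Cfd, Car3, Adipoq, Cidea and Retn the transgenic signal cleared background on array 1 only, so their array 2 ratios are uncertain in size. With detection in both pools required, 2 of 5 markers were called. The remaining detected markers, Plin1, Cd36 and Lipe among them, passed the detection filter through the wild-type pool alone. This favours ratios below 0, and the sum over the 13 markers carries the same selection. Of the 13, 6 did not pass the 1.5-fold rule and were Lpl (−0.89 ± 0.68), Plin1 (−0.63 ± 0.11), Cd36 (−0.30 ± 0.02), Lipe (−0.27 ± 0.16), Plin4 (−0.15 ± 0.03) and Pparg (−0.15 ± 0.12). The summed normalised intensity of the 13 markers was 9215 and 10372 in wild type and 3361 and 2923 in transgenic RNA on arrays 1 and 2. In the transgenic pool on array 2, Plin1 and Cidea had net signals of 0 and −7 units, and Adipoq kept a net signal of 123 units on array 1. Net signals are not normalised and the pools were read in different dyes, so they give no ratio between pools. The normalised array 1 ratio of Adipoq was −1.87. The summed intensity of the 10 detected fatty acid genes was 13831 and 11960 in wild type and 10392 and 10864 in transgenic RNA, and that of the 18 sterol genes 4737 and 6023 against 5760 and 5364. The fatty acid sums were lower in the transgenic pool on both arrays, while the sterol sums overlapped. Such sums weigh the brightest probes most. Ebp, the brightest sterol gene, itself had overlapping pools (9.87 and 11.07 in wild type, 11.02 and 10.83 in transgenic RNA). Scd2, the brightest fatty acid gene, read 12.52 and 11.99 against 11.80 and 11.98. Sums without these genes were not computed, so no contrast between the arms is drawn from them. The part of the fat markers in the ratios of Scd1 and of the rest of the arm was not tested. Macrophage markers also lay below 0 (9 of 9 detected below 0 on both arrays, with C1qc and Mrc1 called), and their summed intensity was 1978 and 2297 in wild type and 1237 and 1556 in transgenic RNA. Only 3 of these 9, C1qc among them, were detected in both pools. The others, Mrc1 included, passed the detection filter through the wild-type pool alone, which favours ratios below 0. Luminal markers had a median of −0.07, with 2 of 14 called lower (Msmb and Hoxb13). The highest means among them were those of Tgm4 (0.25 and 1.16 on arrays 1 and 2) and Pbsn (−0.32 and 1.39). Their summed intensity was 380181 and 294692 in wild type and 321274 and 513065 in transgenic RNA, so its direction differed between the arrays. Fibroblast markers had a median of −0.29, with 0 of 8 called.

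Other genes of the pathway were counted by list. Of 12 further sterol synthesis and uptake genes, 8 were detected and none was called, with means from −0.04 to 0.15 and a median of 0.04. Among them were Lbr, a nuclear envelope protein with sterol reductase activity, at 0.15 ± 0.41 and Ggps1, the geranylgeranyl diphosphate synthase, at 0.07 ± 0.14. Of 12 genes that process or regulate SREBPs, 11 were detected and none was called. The lowest was Nr1h2, which encodes the sterol receptor LXR-beta that drives Srebf1, at −0.57 ± 0.02 and thus just short of the rule (−0.56 and −0.59). Ube2g2, a ubiquitin-conjugating enzyme of endoplasmic reticulum degradation, was at −0.52 ± 1.02, and Mlxipl, the carbohydrate-response factor ChREBP, at −0.39 ± 0.12. Scap, the SREBP escort, was at −0.11 ± 0.72 and Usp25, a deubiquitinase, at 0.37 ± 0.15.

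Of 21 further fatty acid genes, 16 were detected and 1 was called. This was Thrsp, the lipogenic Spot 14 gene that is abundant in fat, at −1.14 ± 0.29. Its transgenic signal cleared background on array 1 only. Acsl1, an acyl-CoA synthetase, was at −1.13 ± 1.45, with −0.11 on array 1 and −2.16 on array 2, where its transgenic signal did not clear background either. Acss2, which activates acetate, was at −0.39 ± 0.09, Slc25a1, the mitochondrial citrate carrier, at −0.37 ± 0.03 and Tecr, the last enzyme of elongation, at −0.35 ± 0.07. These last 3 were below 0 on both arrays and within 1.5-fold. None of 9 detected glycerolipid synthesis genes was called (median 0.03). Among these, Agpat2, an acyltransferase, was at −0.47 ± 0.50, Agpat3 at 0.31 ± 2.13, Dgat2, which makes triglyceride, at −0.26 ± 0.53 and Agpat1 at 0.26 ± 0.26. No call fell among 7 detected genes of sterol efflux and esterification either, whose median was −0.13. There Abca1, the cholesterol exporter, was at −0.30 ± 0.73, Apoe at −0.20 ± 0.01, Mylip, a ubiquitin ligase that LXR induces, at −0.17 ± 0.60 and Abcg1 at −0.13 ± 0.04. Among the genes named from these further lists, the transgenic signal of Lbr, Ggps1, Mlxipl, Usp25, Acss2, Agpat2, Abca1 and Abcg1 also cleared background on array 1 only. A small SD does not make their array 2 ratios precise.

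In all 12 settings plotted, single arrays included, the fatty acid median was lower than the sterol median, by the least on array 1 alone (−0.19 against −0.13). Restricted to genes measured in both pools on both arrays, the medians were −0.30 for 7 fatty acid genes and −0.09 for 9 sterol genes, beside −0.02 for all 6052 such genes. With median centring, all detected genes moved to a median of −0.57, the fatty acid arm was 0.47 below this, and the sterol arm was 0.08 above it. That setting shifts every probe of an array equally, whatever its intensity. On array 2 it left bright probes of both arms far below 0 (Srebf1 −2.19, Ebp −2.06, Msmo1 −2.30). Dim probes were less affected (Cyp51 0.01, Fads1 −0.33). The gap between the arms there was not separated from probe intensity.

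**Figure D3:**
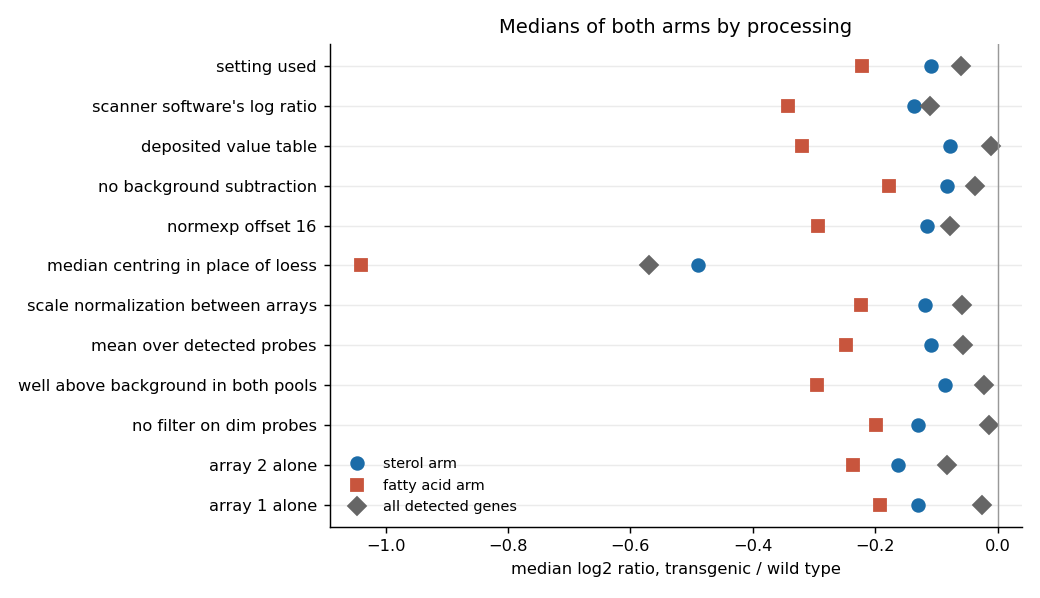
Median log2 ratio of transgenic over wild type of the sterol arm (circles), the fatty acid arm (squares) and all detected genes (diamonds) under each way of processing. The fatty acid median lies left of the sterol median in every row, and median centring moves all 3 to the left, the fatty acid arm to −1.04, the sterol arm to −0.49 and all genes to −0.57.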

How the data were processed

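Total RNA was extracted with Trizol and 100 ng labelled with a low-input Agilent kit, per the labels. Per the file headers, the deposited scanner output was written by Feature Extraction 11.0.1.1 and holds uncorrected median spot and background intensities. The same files, as deposited, give a ratio of processed Cy5 to Cy3 on a log10 scale. The authors' deposited value table is in log2, follows that ratio turned to transgenic over wild type and has a median of 0 on each array. The sources used here do not state how its rows were chosen.

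Signals were corrected with normexp (offset 50) and loess in limma 3.58.1 (R 4.3.3), with control and outlier spots at weight 0, and replicate spots were averaged by probe. The offset pulls ratios of dim probes toward 0. Levels in each pool are after loess and Aquantile scaling. No spot was saturated. Direction follows the dyes in the labels. Of 41174 probes, 27816 matched a symbol in RefSeq (GRCm38.p6). A call needed 1.5-fold or more on each array with equal sign, and no p-value was computed. The planned named genes were all members, plus those called and up to 4 others of each further list; Scap and Krt8 were named after their values were seen, and some genes of the further lists are not reported here. The members and lists were chosen with earlier results of these data known. Alternatives covered the signal, background, normalization, probe, filter, size and array. Tables and figures were made with pandas 2.3.3 and matplotlib 3.10.9.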

Additional observations from a re-analysis of the deposited data

How the results depend on the processing

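Calls among the members changed as follows. The sterol arm had 1 call (Stard4, higher) with Feature Extraction's own ratios and 1 in the authors' deposited table, and 2 on either array alone. The fatty acid arm had 1 call (Acly) with Feature Extraction's own ratios, 2 (Acly higher, Scd1 lower) in the deposited table, 2 (Scd1 and Scd2, lower) with median centring, and 1 to 3 on one array alone. Under the other settings run, both counts stayed at 0. Over all genes the 231 calls became 867 with Feature Extraction's own ratios, 388 with an offset of 16, 556 with median centring, 62 at 2-fold and 1403 to 2109 on one array alone. The sterol median was −0.14 with Feature Extraction's own ratios, −0.079 in the deposited table, −0.084 without background subtraction, −0.49 with median centring, −0.086 with detection in both pools, −0.13 with no filter and −0.16 to −0.13 on one array alone. The fatty acid median was −0.34, −0.32, −0.18, −1.04 and −0.30 in the first 5 of these settings, −0.29 with an offset of 16 and −0.24 to −0.19 on one array alone. The cause was not tested. The call of Thrsp, an alternative added after seeing the data, ended at 2-fold, and 10 of 13 adipocyte markers were called lower with Feature Extraction's own ratios, 3 of 4 in the deposited table and 6 to 9 in other settings without the both-pools filter. Their median was −2.25, −1.76 and, with median centring, −1.62. Single members moved by more than the SD over their arrays in 17 of 28 cases with median centring, 11 of 28 with Feature Extraction's own ratios and 4 of 16 in the deposited table. No paired analysis was possible because both arrays hold the same pair of pools. Precision is limited by having 2 arrays and, for the transgenic pool, by dim Cy5 on array 2.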
